A study of Homo sapiens with 12 samples.

Results

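ErbB2 against control in MCF10A.B2 cells is the comparison of 3 arrays titled ErbB2 with 3 arrays titled Ctr MCF10A.B2, which makes 6 of the 12 arrays of the series. The series measured RNA of modified cells of MCF10A, an immortalized mammary epithelial line of human origin that forms no tumours, on Illumina bead arrays in 4 groups of 3: Ctr MCF10A.B2 (called control here), ErbB2, Cas and Cas/ErbB2. The genotype label is the group's name in each case, and array names mark control M- and ErbB2 M+. MCF10A.B2 is known in the field as an MCF10A derivative with a chimeric ErbB2 receptor that a synthetic dimerizer switches on. The labels give neither the construct nor any agent, dose or time, and they do not say whether the control cells carry the receptor too or whether a group is 1 clone. The labels do not state that the 3 samples of a group were grown separately, so p-values speak only to the spread of these samples, and that spread may be technical. An exact permutation test of 3 arrays against 3 cannot go below p = 0.1, and the small number of arrays limits the precision.

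ErbB2 (HER2) belongs to the EGF receptor family of tyrosine kinases. It has no known soluble ligand of its own and signals as a dimer, with itself when abundant or with EGFR or ERBB3. Its best known outputs are the RAS and ERK kinase cascade, which induces AP-1 and ETS family transcription factors together with inhibitors of the cascade itself, and the PI3K and AKT pathway. AKT phosphorylates FOXO transcription factors and keeps them out of the nucleus, and AKT and mTORC1 signalling favours sterol, lipid and serine synthesis over lysosome formation and fat oxidation. In mammary epithelium, excess ErbB2 is known for driving proliferation and for disturbing polarity and contact with the basement membrane.

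Levels below are normalized log2 signals, listed for replicates 1, 2 and 3 in that order, and a change is the log2 difference between the means of ErbB2 and control ± its standard error from limma (3 arrays a group). P-values were adjusted by Benjamini-Hochberg across 9784 items, made up of 7610 named genes and 2174 unnamed probes, all detected on each of the 6 arrays, and an item is called at an adjusted p under 0.05. A level is a brightness that depends on the probe, so levels are compared only within a gene. In bulk RNA, fewer cells of a type and less RNA per cell cannot be told apart.

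The control arrays had a median raw signal of 171 to 202 and the ErbB2 arrays one of 477 to 577, and 19076 to 19416 probes were detected on the former against 14099 to 15084 on the latter. Control replicates 1 and 2 carry hybridization number III in their labels, control replicate 3 carries II and the ErbB2 arrays carry none, so hybridization and group cannot be told apart. Across the items tested, Pearson's r was 0.985 to 0.990 between ErbB2 arrays, 0.987 to 0.994 between control arrays and 0.954 to 0.963 between the groups, where items are not independent replicates. The first principal component held 69.7% of the variance of the 6 arrays and separated the groups. The cells carried the markers of a basal mammary epithelial line: all 6 basal markers with a probe, KRT5, KRT14, CDH3, ITGB4, ITGA6 and EGFR, were detected on all 6 arrays, as were 7 of 8 general epithelial markers. Summed linear signal of the basal list was 68730 to 81140 on ErbB2 and 79800 to 92210 on control arrays, and that of the 8 epithelial markers 26230 to 28900 and 38760 to 43580. Of 10 luminal markers MUC1 and CD24 were detected on all 6 arrays, and FOXA1, PGR, ELF5 and PROM1 on none. PTPRC, CD3E and ITGAM (leukocyte), COL3A1, PDGFRA and PDGFRB (fibroblast) and VWF, CDH5, KDR and CLDN5 (endothelial) were not detected on any.

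ErbB2 cells differed from control in 2488 of 9784 items (25.4%), of which 1385 were higher (14.2%) and 1103 lower (11.3%). Among the 7610 named genes 897 were higher (11.8%) and 970 lower (12.7%). These shares are the background against which counts in the gene groups below have to be read. Most changes were modest: the median size among called items was 0.67, and 296 items were called higher and 179 lower by at least 2-fold, 28 and 4 of them by at least 4-fold. The arrays of the groups did not overlap for 4688 items (47.9%) and for 2460 of the called items (98.9%), so that alone marks no gene. Of the 2446 items with the lowest mean signal 16.7% were higher and 4.25% lower, with a median change of 0.20, while of the 2446 brightest 10.7% were higher and 11.7% lower. The background of the control arrays lay lower, and its part in that asymmetry was not tested. Scaling each array by its median over all 47224 probes, mostly undetected ones, moved the median change from 0.02 to -1.62 and left 24 of 9251 calls higher, so directions here are relative to quantile normalized arrays. Without control replicate 2 the calls numbered 1534, and without ErbB2 replicate 2 they numbered 1626. Where a list below has 0 calls in a direction, limma gave 0 to 2 of its members there at an unadjusted p under 0.05.

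**Figure D1:**
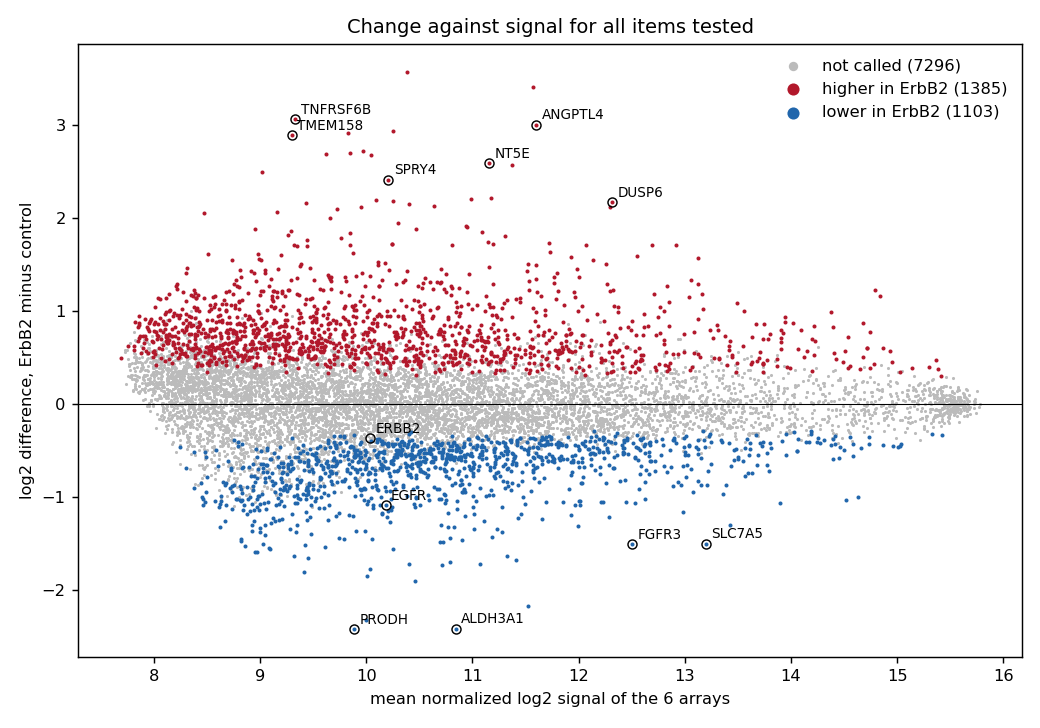
Log2 difference between ErbB2 and control (vertical axis) against the mean normalized log2 signal of the 6 arrays (horizontal axis) for all 9784 items, with the 1385 items called higher in red, the 1103 called lower in blue and the others grey, and labelled genes ringed. Calls in both directions span the whole range of signal, and calls of lower items thin out at the dimmest end.

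The largest rise among named genes was that of TNFRSF6B. TNFRSF6B, a soluble decoy receptor for FAS ligand, read 7.77, 7.65 and 7.99 on the control arrays and 11.13, 10.82 and 10.63 on the ErbB2 arrays. Its ErbB2 arrays lay far above all control arrays, a change of 3.06 ± 0.17 or 8.33-fold (adjusted p = 7.19e-07). ANGPTL4, a secreted inhibitor of lipoprotein lipase, read 10.35, 9.55 and 10.39 on the control arrays and 13.02, 13.05 and 13.22 on the ErbB2 arrays, and control replicate 2 was the lowest. The groups stood apart by 3.001 ± 0.23 (adjusted p = 5.55e-06). NT5E, the surface enzyme CD73 that makes adenosine from AMP, read 9.97, 9.73 and 9.91 on the control arrays and 12.69, 12.25 and 12.42 on the ErbB2 arrays. No array overlapped the other group (2.58 ± 0.14, adjusted p = 5.15e-07), and the adenosine receptor ADORA1 also rose (0.68 ± 0.16, adjusted p = 0.00815), while ADA, ENTPD3 and ADORA2B of the 5 measured genes of extracellular nucleotide metabolism did not pass. The membrane proteins MALL (2.93 ± 0.27) and TMEM158 (2.88 ± 0.18), the prohormone convertase chaperone SCG5 (2.67 ± 0.18) and INSC (2.15 ± 0.18), which helps to orient the mitotic spindle, were also among the 15 largest rises, with CITED4 (2.22 ± 0.21), a transcriptional coregulator.

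PRODH and ALDH3A1 had the largest falls among named genes. PRODH, the mitochondrial enzyme that starts proline breakdown, read 10.76, 11.39 and 11.14 on the control arrays and 8.78, 8.77 and 8.48 on the ErbB2 arrays. All ErbB2 arrays were lower, by -2.42 ± 0.19 or 5.36-fold (adjusted p = 8.59e-06). ALDH3A1, an aldehyde dehydrogenase, read 12.19, 11.96 and 12.01 on the control arrays and 9.77, 9.498 and 9.63 on the ErbB2 arrays, again with no overlap (-2.42 ± 0.12, adjusted p = 3.41e-07). BBOX1, which carries out the last step of carnitine synthesis, read 11.25, 11.20 and 11.03 on the control arrays and 8.82, 9.05 and 8.62 on the ErbB2 arrays, and SLC22A5, the carnitine transporter of the plasma membrane, read 10.14, 10.46 and 10.25 on the control arrays and 8.75, 8.40 and 8.73 on the ErbB2 arrays. Both were lower on every ErbB2 array (BBOX1 -2.33 ± 0.30, adjusted p = 3.02e-04, and SLC22A5 -1.66 ± 0.33, adjusted p = 0.00401). Falls of -1.60 to -1.91 were also seen for the ethanolamine kinase ETNK2 (-1.91 ± 0.16), the epithelial calmodulin-like protein CALML3 (-1.81 ± 0.22), the selenium carrier SELENOP (-1.73 ± 0.12), the endosomal GTPase RAB7B (-1.73 ± 0.24), the epoxide hydrolase EPHX1 (-1.68 ± 0.11) and MOB3B (-1.60 ± 0.32). DCN, the matrix proteoglycan decorin, fell as well (-1.73 ± 0.29, adjusted p = 0.00151). DCN is also on the fibroblast list, whose summed linear signal over 8 probed markers was 1929 to 2660 on ErbB2 and 3232 to 4031 on control arrays. This sum includes DCN itself, so it is no separate measure beside the fall of DCN. Of the other members of the list FAP rose (1.14 ± 0.17), COL1A1 did not pass (0.11 ± 0.24), and COL3A1, PDGFRA and PDGFRB were not detected.

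**Figure D2:**
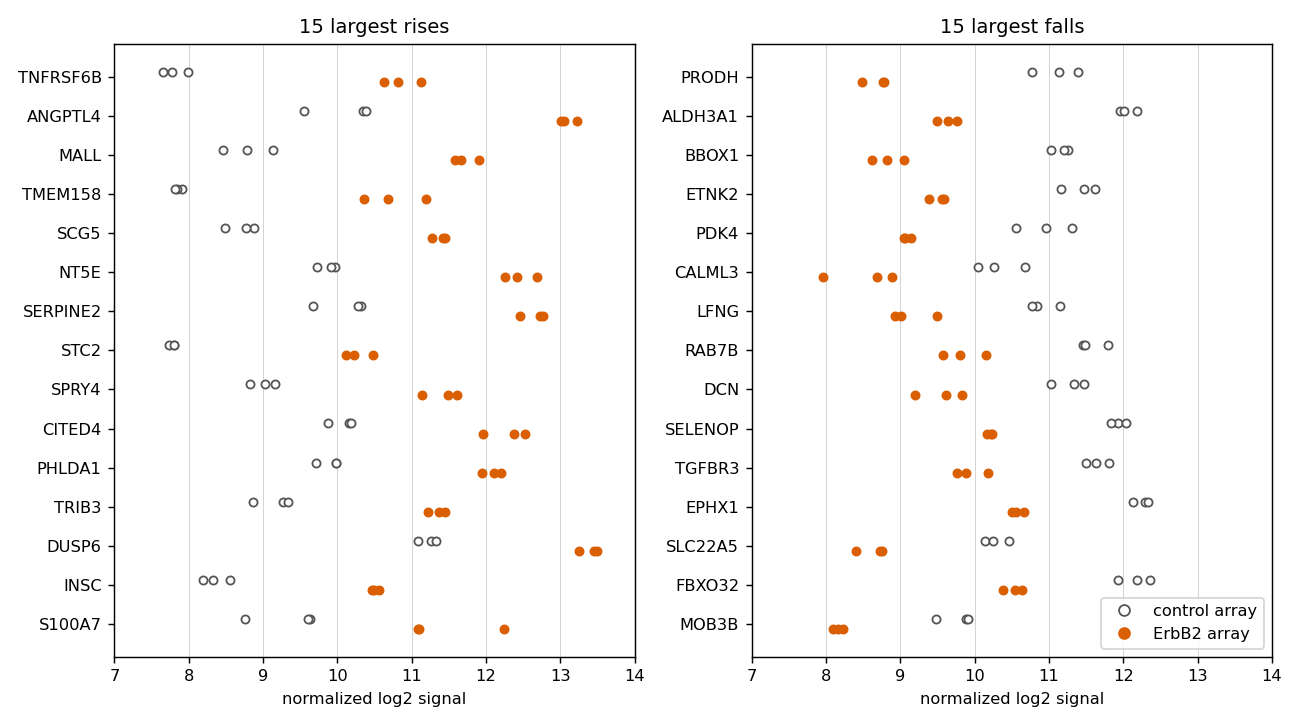
Normalized log2 signal (horizontal axis) of the 15 named genes with the largest rises (left) and the 15 with the largest falls (right), 1 point per array, open for control and filled for ErbB2. In every gene shown the 3 ErbB2 points lie clear of the 3 control points, as the choice of genes required, with the widest spread within a group in genes such as S100A7.

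No rise was called for the receptor itself. ERBB2 read 10.36, 10.10 and 10.20 on the control arrays and 9.94, 9.70 and 9.91 on the ErbB2 arrays at the brightest of its 3 probes, ILMN_2352131, and the change of -0.37 ± 0.17 did not pass (adjusted p = 0.126). The other ERBB2 probes were not detected on any ErbB2 array and together on 1 control array. Where any of these probes lies relative to an introduced receptor is not known here, and NGFR, named in the field as the outer part of that chimera, was not detected on any of the 6 arrays, so they do not check the labels. EGFR, the receptor for EGF and for TGF-alpha, read 10.55, 10.86 and 10.77 on the control arrays and 9.79, 9.49 and 9.63 on the ErbB2 arrays. At this probe EGFR was lower on all ErbB2 arrays (-1.09 ± 0.12, 2.13-fold lower, adjusted p = 9.57e-05). Another EGFR probe, ILMN_1696521, overlapped between the groups. It read 7.49, 7.81 and 7.97 on the control arrays, where it was detected, and 7.75, 7.56 and 7.52 on the ErbB2 arrays, where it was not. The remaining EGFR probes were not detected on any of the 6 arrays. ERBB3 read 7.94, 7.76 and 7.63 on the control arrays and 8.61, 8.24 and 8.38 on the ErbB2 arrays, and its change of 0.64 ± 0.22 missed the threshold (adjusted p = 0.0534), although no arrays overlapped, and passed it in 10 of 26 alternatives. A second ERBB3 probe, ILMN_1737993, went the other way: it read 7.86, 7.40 and 7.37 on the control arrays, where it was detected, and 6.37, 6.29 and 6.31 on the ErbB2 arrays, where it was not. The ERBB3 probes thus disagree, and ERBB4 was not detected. Of 9 ligands 2 were measured and both rose: TGFA read 9.13, 9.11 and 9.12 on the control arrays and 10.46, 10.37 and 10.61 on the ErbB2 arrays (1.36 ± 0.18, adjusted p = 3.06e-04), with the second TGFA probe higher as well, and HBEGF read 8.37, 8.08 and 8.15 on the control arrays and 9.04, 9.07 and 9.12 on the ErbB2 arrays (0.88 ± 0.21, adjusted p = 0.0111). Of 11 measured inhibitors and adaptors that act at the receptors, GRB7, an adaptor that binds ErbB2, rose (1.16 ± 0.20, adjusted p = 0.0017). The other 10 did not pass, among them ERRFI1 (0.22) and CBL (-0.36). BCAR1, the gene of p130Cas, did not pass either (-0.33 ± 0.24, adjusted p = 0.334).

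Genes induced by ERK rose in greater part than the background. Of 15 measured inhibitors that ERK induces against itself 8 rose and 2 fell, with a median change of 0.65 against 0.02 over all items. SPRY4, a Sprouty protein that dampens signalling from receptor kinases to ERK, read 9.16, 8.83 and 9.03 on the control arrays and 11.61, 11.14 and 11.49 on the ErbB2 arrays. DUSP6, a cytoplasmic phosphatase of ERK, read 11.26, 11.09 and 11.33 on the control arrays and 13.25, 13.45 and 13.49 on the ErbB2 arrays. ErbB2 arrays were above all control arrays for both (SPRY4 2.41 ± 0.18, adjusted p = 4.18e-06, and DUSP6 2.17 ± 0.12, adjusted p = 7.36e-07). The nuclear ERK phosphatase DUSP5 (1.34 ± 0.15) and DUSP7 (1.15 ± 0.19) rose by less. DUSP1, a phosphatase better known for p38 and JNK, read 13.63, 13.61 and 13.51 on the control arrays and 12.89, 12.80 and 12.89 on the ErbB2 arrays, a fall of -0.72 ± 0.10 (adjusted p = 3.84e-04), and DUSP14 also fell (-0.40 ± 0.11), with a call lost in 3 alternatives. Of 20 ERK-induced transcription factors 9 rose and 2 fell (median 0.48). The ETS factors ETV5 (1.33 ± 0.20, adjusted p = 7.32e-04) and ETV4 (1.17 ± 0.17, adjusted p = 5.44e-04) and the AP-1 subunit FOS (1.20 ± 0.12, adjusted p = 4.24e-05) rose, while ETS2 read 11.68, 12.03 and 11.80 on the control arrays and 10.83, 10.70 and 10.65 on the ErbB2 arrays and fell (-1.11 ± 0.15, adjusted p = 3.62e-04). IER2 reached 1.00 ± 0.32 with a call that was lost in 7 alternatives, and JUN (-0.53), EGR1 (0.34) and MYC (0.33) did not pass. Across alternatives 5 to 13 of these factors rose and 1 to 5 fell. Of 15 other ERK-induced genes 10 rose and 0 fell (median 0.81), among them PHLDA1 (2.20 ± 0.14), the stress-responsive gene IER3 (1.74 ± 0.15) and the receptor TNFRSF12A (1.55 ± 0.13).

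Targets of FOXO factors fell in greater part than the background. Of 17 measured FOXO targets and insulin feedback genes 9 fell and 2 rose, with a median change of -0.48. PDK4, a kinase that holds pyruvate out of the citric acid cycle, read 10.56, 11.30 and 10.96 on the control arrays and 9.06, 9.14 and 9.05 on the ErbB2 arrays. The ErbB2 arrays lay close together and below every control array (-1.86 ± 0.23, 3.63-fold lower, adjusted p = 2.02e-04). FBXO32, the ubiquitin ligase atrogin-1, read 12.18, 12.36 and 11.93 on the control arrays and 10.63, 10.37 and 10.54 on the ErbB2 arrays (-1.64 ± 0.21, adjusted p = 3.08e-04). BCL6, a transcriptional repressor, read 11.33, 11.63 and 11.56 on the control arrays and 9.89, 10.17 and 10.12 on the ErbB2 arrays (-1.45 ± 0.18, adjusted p = 2.24e-04), and the sestrin SESN1 read 11.81, 12.18 and 11.92 on the control arrays and 10.48, 10.68 and 10.60 on the ErbB2 arrays (-1.38 ± 0.18, adjusted p = 3.61e-04). For these 4 genes no array of one group reached those of the other. TNFSF10, the death ligand TRAIL, read 9.999, 10.06 and 10.02 on the control arrays and 8.72, 8.63 and 8.58 on the ErbB2 arrays, a change of -1.38 ± 0.41 whose adjusted p of 0.0275 rose to 0.0791 at most among the alternatives, and its call was lost in 6 of them. KLF9 (-0.71 ± 0.12) and CITED2 (-1.32 ± 0.34) fell too. Against the list, TRIB1, a pseudokinase, read 8.96, 8.90 and 9.04 on the control arrays and 10.38, 10.15 and 10.45 on the ErbB2 arrays and rose (1.36 ± 0.13, adjusted p = 3.73e-05). GADD45A rose too (0.51 ± 0.17, adjusted p = 0.0438), with a call lost in 10 alternatives. IRS2 (-0.24), CCNG2 (-0.34) and CDKN1B (-0.18) did not pass. Without single arrays or under other settings the number of falls in this list ranged from 5 to 12 and that of rises from 1 to 2.

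Lysosome and autophagy genes held the largest share of falls of any list with at least 10 measured members, 11 of 19 (57.9%, against 12.7% of named genes), with 0 rises and a median of -0.46. CTSA, a lysosomal carboxypeptidase that protects other lysosomal enzymes, read 9.65, 9.88 and 9.74 on the control arrays and 8.20, 8.55 and 8.29 on the ErbB2 arrays. It fell by more than any other member (-1.41 ± 0.15, adjusted p = 7.54e-05). ULK1, the kinase that starts autophagosome formation, read 11.45, 11.68 and 11.42 on the control arrays and 11.10, 10.74 and 10.58 on the ErbB2 arrays (-0.71 ± 0.15, adjusted p = 0.00552). LAMP1, an abundant lysosomal membrane protein, read 12.94, 13.36 and 13.11 on the control arrays and 12.66, 12.29 and 12.45 on the ErbB2 arrays (-0.67 ± 0.17, adjusted p = 0.0125), and MAP1LC3B, the LC3 protein of autophagosomes, read 11.02, 11.11 and 11.09 on the control arrays and 10.23, 10.499 and 10.59 on the ErbB2 arrays (-0.63 ± 0.14, adjusted p = 0.00815). In each of these genes all ErbB2 arrays were below all control arrays. Cathepsin D (CTSD, -0.63 ± 0.14), BECN1 (-0.60 ± 0.15) and the autophagy receptor SQSTM1 (-0.56 ± 0.14) fell as well. The 8 that did not pass lay between -0.33 (LAMP2) and 0.07 (CTSL). Across alternatives 7 to 18 members fell and 0 rose.

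**Figure D3:**
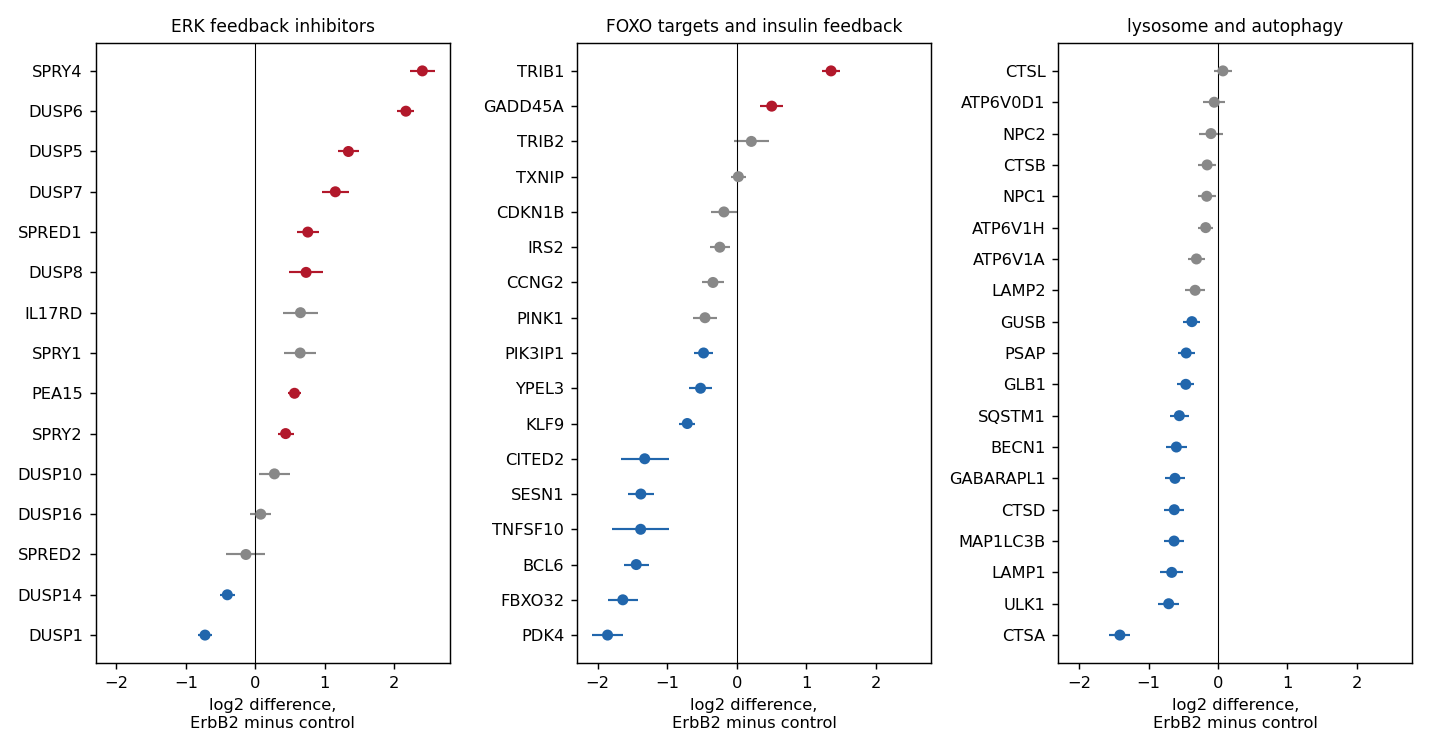
Log2 difference between ErbB2 and control with its standard error (horizontal axis, n = 3 arrays per group) for every measured member of 3 lists: ERK feedback inhibitors, FOXO targets with insulin feedback, and lysosome with autophagy. Members called higher are red (8, 2 and 0), those called lower blue (2, 9 and 11) and the others grey.

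Genes of the plasminogen system rose in greater part than the background. Of 15 measured genes of the plasminogen system, serpins and coagulation 8 rose and 0 fell (53.3% against 11.8% of named genes, median 0.55). SERPINE2, protease nexin 1, an inhibitor of thrombin and urokinase, read 10.31, 9.67 and 10.28 on the control arrays and 12.73, 12.46 and 12.77 on the ErbB2 arrays. Tissue factor F3, the starter of coagulation, read 9.45, 8.99 and 9.53 on the control arrays and 11.30, 11.23 and 11.26 on the ErbB2 arrays, and PLAU, urokinase, read 10.80, 10.72 and 11.07 on the control arrays and 12.71, 12.47 and 12.59 on the ErbB2 arrays. All ErbB2 arrays were above all control arrays in the 3 genes, with changes of 2.57 ± 0.17, 1.94 ± 0.18 and 1.73 ± 0.13 (adjusted p = 1.74e-06, 2.25e-05 and 4.00e-06). SERPINB1, an inhibitor of neutrophil proteases, rose by 1.08 ± 0.12 (adjusted p = 1.35e-04) and SERPINA1 by 0.99 ± 0.12. The urokinase receptor PLAUR (0.40), tissue plasminogen activator PLAT (-0.02) and maspin SERPINB5 (0.13) did not pass. Of 10 measured metalloproteinases and inhibitors 2 rose and 2 fell: MMP9, a gelatinase, read 9.29, 8.56 and 8.82 on the control arrays and 11.45, 11.001 and 10.59 on the ErbB2 arrays (2.12 ± 0.31), and the membrane protease ADAM19 rose (2.04 ± 0.14). The inhibitor TIMP3 read 11.10, 11.70 and 11.24 on the control arrays and 10.28, 10.11 and 9.75 on the ErbB2 arrays and fell (-1.30 ± 0.18, adjusted p = 4.49e-04), as did BSG (-0.66 ± 0.18, a call lost in 4 alternatives), while TIMP1 (-0.31) and TIMP2 (-0.27) did not pass. SERPINE2 had the largest change of these genes, and the 250 bases before the first of its 2 listed starts (RefSeq, GRCh38.p14, chr2:224031479-224031728, minus strand, written from far to near the start) are shown for this reason. The capitals mark CCAAT, or ATTGG where it lies on the other strand, and they occur 7 times.
SERPINE2: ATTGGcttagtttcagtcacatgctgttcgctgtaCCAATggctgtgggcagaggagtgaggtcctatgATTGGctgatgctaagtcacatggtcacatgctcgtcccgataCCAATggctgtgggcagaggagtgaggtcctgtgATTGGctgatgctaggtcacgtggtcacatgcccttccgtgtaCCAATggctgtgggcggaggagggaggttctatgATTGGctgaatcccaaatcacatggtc
CCAAT on either strand is found in 33.0% of all 27305 promoters of this length and in 36.1% of those of measured genes, so its presence alone sets no gene apart.

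Integrin chains rose more often than the background. Of 10 measured integrin chains 6 rose and 0 fell (median 0.80). ITGA5, the alpha chain of the main fibronectin receptor, read 10.02, 9.80 and 9.83 on the control arrays and 11.53, 10.90 and 11.11 on the ErbB2 arrays (1.30 ± 0.24, adjusted p = 0.00248). ITGA2, the alpha chain of a collagen receptor, read 9.54, 10.07 and 10.08 on the control arrays and 10.85, 10.72 and 10.86 on the ErbB2 arrays (0.92 ± 0.15, adjusted p = 0.00125), and ITGA6, a laminin receptor chain, read 10.74, 10.97 and 10.95 on the control arrays and 11.55, 11.41 and 11.85 on the ErbB2 arrays (0.72 ± 0.13, adjusted p = 0.00235). The groups did not overlap in these 3 genes, nor in ITGB2 (1.07 ± 0.19), ITGA10 (1.05 ± 0.20) and ITGB5 (0.89 ± 0.11). But ITGB1, the beta chain that pairs with ITGA2, ITGA5 and ITGA6, did not pass (-0.07), and neither did ITGB4 (0.37 ± 0.20). Of 12 genes of the hemidesmosome and basement membrane LAMB3, a chain of the main laminin of hemidesmosomes, read 13.04, 13.08 and 13.07 on the control arrays and 14.20, 13.86 and 14.12 on the ErbB2 arrays and rose (0.99 ± 0.14, adjusted p = 4.51e-04), and the laminin chains LAMB2 (-0.84 ± 0.19), LAMC1 (-0.56 ± 0.13) and LAMA5 (-0.55 ± 0.16, a call lost in 5 alternatives) fell. Of 21 focal adhesion genes 6 rose and 7 fell: the scaffold PXN rose (0.86 ± 0.16, adjusted p = 0.00271), and focal adhesion kinase PTK2 (-0.68 ± 0.12, adjusted p = 0.00229), the tensin TNS3 (-1.05 ± 0.13, adjusted p = 2.80e-04) and DOCK1, an activator of RAC that acts with p130Cas and CRK, (-1.001 ± 0.18, adjusted p = 0.00242) fell. TNS3 read 11.34, 11.49 and 11.30 on the control arrays and 10.52, 10.23 and 10.23 on the ErbB2 arrays, without overlap. Of 14 cadherin and desmosome genes 0 rose and 4 fell (median -0.27), all of them desmosomal: DSC3 read 12.37, 12.71 and 12.51 on the control arrays and 11.33, 11.06 and 11.59 on the ErbB2 arrays (-1.20 ± 0.15, adjusted p = 2.80e-04), DSP read 13.97, 14.33 and 14.17 on the control arrays and 13.55, 13.36 and 13.39 on the ErbB2 arrays (-0.73 ± 0.13), and JUP (-0.75 ± 0.14) and DSG3 (-0.61 ± 0.15) fell too. E-cadherin CDH1 (-0.49 ± 0.19, adjusted p = 0.0789) and P-cadherin CDH3 (-0.47 ± 0.18, adjusted p = 0.0807) missed the threshold but passed it in 6 and 7 of 27 alternatives, so that the falls being desmosomal depends on the setting. Across alternatives 3 to 8 genes of this list fell and 0 to 3 rose. Of 6 measured tight junction genes the list holds, CLDN7 (0.64 ± 0.14) and the epithelial splicing regulator ESRP1 (0.82 ± 0.20) rose, and 0 fell. EPCAM, an epithelial surface marker, rose too (1.04 ± 0.14, adjusted p = 3.17e-04). Of 12 mesenchymal markers and regulators 3 rose and 4 fell, with COL8A1 (0.96 ± 0.21) and TWIST2 (0.92 ± 0.15) higher, TAGLN (-1.21 ± 0.29), AXL (-0.88 ± 0.17) and TWIST1 (-0.58 ± 0.15, a call lost in 4 alternatives) lower, and vimentin (0.18) and SNAI2 (0.09) not passing.

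Genes of squamous differentiation and of the S100 family, calcium-binding proteins abundant in surface epithelia, rose in greater part than the background. Of 12 squamous differentiation genes 6 rose and 1 fell (median 1.10), and of 14 genes listed with the S100 proteins 9 rose and 2 fell (median 0.54), S100A7 standing in both lists. S100A7, psoriasin, read 9.63, 8.75 and 9.60 on the control arrays and 12.25, 11.09 and 11.10 on the ErbB2 arrays. The groups did not overlap, with ErbB2 replicate 1 above the other two ErbB2 arrays and control replicate 2 below the other controls (2.15 ± 0.34, adjusted p = 9.33e-04). S100P, a calcium-binding protein, read 8.78, 7.97 and 9.27 on the control arrays and 11.03, 10.73 and 10.54 on the ErbB2 arrays (2.09 ± 0.33, adjusted p = 9.33e-04). S100A8 read 14.35, 13.80 and 14.38 on the control arrays and 15.53, 15.31 and 15.36 on the ErbB2 arrays, and its partner S100A9 read 14.47, 13.86 and 14.46 on the control arrays and 15.46, 15.52 and 15.28 on the ErbB2 arrays, both among the brightest probes, with changes of 1.23 ± 0.15 and 1.16 ± 0.17 (adjusted p = 2.28e-04 and 5.56e-04). S100A4 (-0.49 ± 0.15) and S100PBP (-0.42 ± 0.12), a binding partner of S100P and no S100 protein itself, made up the 2 falls, and each call was lost in 6 alternatives. The protease KLK5 (1.83 ± 0.28), the envelope protein SPRR2D (1.51 ± 0.24) and the cross-linking enzyme TGM1 (1.22 ± 0.22) rose, and periplakin PPL fell (-0.84 ± 0.14). SPRR1B read 9.92, 9.49 and 10.57 on the control arrays and 12.30, 11.81 and 11.59 on the ErbB2 arrays (1.90 ± 0.26, adjusted p = 4.44e-04), and SPRR1A read 11.61, 11.01 and 12.65 on the control arrays and 13.60, 13.40 and 13.03 on the ErbB2 arrays (1.59 ± 0.34, adjusted p = 0.00577). In both, control replicate 3 came closest to the ErbB2 arrays. These paralogs encode cornified envelope precursors, lie on chromosome 1 and share much sequence, so signal from one could reach the probe of the other. The 250 bases before the start of each (RefSeq, GRCh38.p14, plus strand, SPRR1B chr1:153030953-153031202 and SPRR1A chr1:152983831-152984080) are shown because they rose together and both hold AP-1 letters. Capitals mark TGANTCA, where N is any base.
SPRR1B: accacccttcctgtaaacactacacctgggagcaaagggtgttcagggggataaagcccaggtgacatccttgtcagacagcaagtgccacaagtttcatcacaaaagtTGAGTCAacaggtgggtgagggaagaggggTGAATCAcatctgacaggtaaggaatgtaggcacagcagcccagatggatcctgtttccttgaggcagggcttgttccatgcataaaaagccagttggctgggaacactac
SPRR1A: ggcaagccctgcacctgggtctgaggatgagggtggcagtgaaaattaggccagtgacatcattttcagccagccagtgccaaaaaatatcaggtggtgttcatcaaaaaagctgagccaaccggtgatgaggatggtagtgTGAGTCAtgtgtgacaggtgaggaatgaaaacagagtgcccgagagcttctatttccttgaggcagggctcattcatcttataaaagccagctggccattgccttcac
SPRR1B holds the letters at 141 to 135 and at 111 to 105 bases before the start, and SPRR1A at 108 to 102, against 6.60% of all promoters and 3.92% of those of measured genes. Among genes called higher 4.74% held them, and among genes called lower 4.55%. Of matched rising genes, 2 of 4 squamous genes held them, the 2 shown, and 2 of 9 S100 genes. In the ERK lists it was 0 of 7 rising feedback inhibitors, 0 of 6 transcription factors and 0 of 6 other genes. Keratins did not share this direction: of 7 measured KRT7 rose (0.71 ± 0.22), KRT8 read 10.88, 10.92 and 10.97 on the control arrays and 10.32, 9.90 and 9.88 on the ErbB2 arrays and fell (-0.89 ± 0.20, adjusted p = 0.00771), KRT14 fell by less (-0.33 ± 0.11), and KRT5 did not pass (-0.31 ± 0.13). The calls of KRT7 and KRT14 were lost in 5 and 11 alternatives. The luminal markers MUC1 (0.61 ± 0.19) and CD24 (0.74 ± 0.22) rose, with calls lost in 7 and 5 alternatives. The summed signal of the luminal list, which includes both genes, was 14720 to 19080 on ErbB2 and 8444 to 13070 on control arrays. Its part in the rises of surface proteins was not tested.

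Some chemokines and cytokines rose. Of 13 measured chemokines, cytokines and NF-kappaB targets 4 rose and 0 fell (median 0.00). CCL20, a chemokine of mucosal surfaces, read 8.52, 8.35 and 8.63 on the control arrays and 9.999, 10.22 and 10.36 on the ErbB2 arrays (1.69 ± 0.15, adjusted p = 2.06e-05), and CXCL8, interleukin 8, read 8.98, 8.19 and 9.81 on the control arrays and 10.64, 10.87 and 10.60 on the ErbB2 arrays (1.71 ± 0.31, adjusted p = 0.0021). Control replicate 3 lay nearest to the ErbB2 arrays for CXCL8. CCL5 (1.06 ± 0.16) and interleukin 1 alpha IL1A (0.73 ± 0.16) rose, but the pathway's own feedback genes TNFAIP3 (-0.02) and NFKBIA (-0.38) did not pass. Of 6 mucosal defence proteins 3 rose and 1 fell: PI3, the elastase inhibitor elafin, read 12.47, 11.03 and 12.70 on the control arrays and 13.99, 13.67 and 13.63 on the ErbB2 arrays (1.70 ± 0.36, adjusted p = 0.00532), SAA1 rose (0.56 ± 0.13), and complement C3 read 10.26, 10.54 and 10.52 on the control arrays and 9.09, 9.26 and 9.38 on the ErbB2 arrays and fell (-1.20 ± 0.21, adjusted p = 0.00189). LCN2 reached 1.19 ± 0.37, with a call lost in 4 alternatives. Of 14 interferon response genes ISG20, an exonuclease, alone rose (1.78 ± 0.17, adjusted p = 3.90e-05) and 0 fell, but across alternatives 1 to 4 rose and 0 to 9 fell, the most falls without a detection filter, where more members count. Of 14 genes of MHC class I presentation TAP1 (-0.71 ± 0.15, adjusted p = 0.00482) and CALR (-0.48 ± 0.14, a call lost in 5 alternatives) fell and 0 rose, with 1 to 7 falls across alternatives.

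Amino acid genes moved in both directions. Of 15 measured genes of serine, one-carbon and asparagine synthesis 6 rose and 5 fell, with a median of -0.29. This list is wider than its name. It also holds PRODH, whose fall is counted here, and the proline, arginine and glutamine enzymes PYCR1, ASS1 and GLUL. ASNS, asparagine synthetase, read 9.88, 9.68 and 9.55 on the control arrays and 10.63, 11.28 and 11.18 on the ErbB2 arrays (1.33 ± 0.19, adjusted p = 6.05e-04). PHGDH, the first enzyme of serine synthesis, read 10.62, 10.29 and 10.55 on the control arrays and 11.38, 11.77 and 11.36 on the ErbB2 arrays (1.01 ± 0.16, adjusted p = 9.44e-04), while PSAT1, the next enzyme, read 12.34, 12.15 and 12.28 on the control arrays and 11.46, 11.97 and 11.52 on the ErbB2 arrays and fell (-0.60 ± 0.15, adjusted p = 0.0111). The mitochondrial folate enzyme MTHFD2 rose (1.11 ± 0.14, adjusted p = 2.89e-04). PYCR1, the last enzyme of proline synthesis, read 8.24, 8.36 and 8.16 on the control arrays and 9.45, 9.28 and 9.13 on the ErbB2 arrays and rose (1.03 ± 0.19), opposite to PRODH above. ASS1, which makes the precursor of arginine, read 14.002, 13.92 and 13.93 on the control arrays and 13.06, 13.28 and 13.20 on the ErbB2 arrays and fell (-0.77 ± 0.10, adjusted p = 3.12e-04), as did glutamine synthetase GLUL (-0.58 ± 0.15, a call lost in 4 alternatives). SLC7A5, the large neutral amino acid transporter LAT1, read 13.96, 14.04 and 13.84 on the control arrays and 12.54, 12.36 and 12.43 on the ErbB2 arrays, and its heavy chain SLC3A2 read 12.49, 12.64 and 12.55 on the control arrays and 11.51, 11.53 and 11.38 on the ErbB2 arrays. Both were lower on every ErbB2 array (-1.504 ± 0.12 and -1.09 ± 0.11, adjusted p = 8.07e-06 and 5.78e-05), and the other 6 of 8 measured amino acid transporters did not pass. Of 14 ATF4 and CHOP regulators and targets 5 rose and 1 fell: TRIB3, a pseudokinase induced by ATF4, read 9.27, 8.87 and 9.34 on the control arrays and 11.22, 11.36 and 11.44 on the ErbB2 arrays (2.18 ± 0.16, adjusted p = 3.32e-06), and STC2, a secreted glycoprotein, read 7.80, 7.73 and 7.80 on the control arrays and 10.11, 10.22 and 10.48 on the ErbB2 arrays (2.49 ± 0.14, adjusted p = 7.36e-07). XPOT (0.998 ± 0.17) and ERO1A (0.92 ± 0.11) rose, NUPR1 fell (-0.54 ± 0.15, a call lost in 6 alternatives), and ATF4 itself rose slightly (0.34 ± 0.10). Of 18 cytosolic tRNA synthetases GARS1 (0.79 ± 0.13), MARS1 (0.78 ± 0.15) and TARS1 (0.51 ± 0.12) rose and QARS1 (-0.57 ± 0.12) fell. Of 17 endoplasmic reticulum chaperones and related genes 3 rose and 4 fell, XBP1 rising most (1.10 ± 0.10, adjusted p = 3.11e-05) and HSPA5 not passing (-0.12). The 250 bases before the first of the 2 listed starts of ASNS (RefSeq, GRCh38.p14, chr7:97872409-97872658, minus strand) are shown since ASNS is the standard example of ATF4 control in human cells. Capitals mark TGATGNAAN, the letters searched as amino acid response element.
ASNS: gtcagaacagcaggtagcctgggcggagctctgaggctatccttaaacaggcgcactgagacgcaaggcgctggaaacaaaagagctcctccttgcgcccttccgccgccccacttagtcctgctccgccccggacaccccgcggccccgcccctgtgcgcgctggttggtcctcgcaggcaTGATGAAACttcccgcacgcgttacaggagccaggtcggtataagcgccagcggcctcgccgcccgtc
They stand 68 to 60 bases before the start. On either strand 3.18% of all promoters and 1.37% of those of measured genes hold them. Among genes called higher 1.90% held them, and among genes called lower 2.27%. In the serine, one-carbon and asparagine list 2 of the 4 matched genes called higher held them, and 1 of the 4 called lower. Of the 5 matched ATF4 and CHOP genes called higher 0 held them.

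Sterol synthesis genes rose in greater part than the background. Of 17 genes of sterol synthesis and uptake 8 rose and 0 fell (47.1%, median 0.73). CYP51A1, lanosterol demethylase, read 9.99, 9.94 and 10.26 on the control arrays and 11.39, 11.56 and 11.40 on the ErbB2 arrays (1.39 ± 0.15, adjusted p = 9.82e-05), and IDI1, an isoprenoid isomerase, read 10.16, 10.13 and 10.26 on the control arrays and 11.19, 11.47 and 11.62 on the ErbB2 arrays (1.24 ± 0.12, adjusted p = 3.96e-05). MSMO1 (1.04 ± 0.14), MVD (1.07 ± 0.21), FDPS (1.01 ± 0.18) and HMGCS1 (0.95 ± 0.13) rose, whereas SQLE (0.35) and LSS (0.04) did not pass. Of 13 genes of fatty acid synthesis and storage 4 rose and 2 fell, with ACSL4 (0.80 ± 0.13), the desaturase SCD (0.76 ± 0.14, adjusted p = 0.00258) and ACSS2 (0.68 ± 0.11) higher, the lipid phosphatase LPIN1 lower (-0.69 ± 0.13), and FASN (-0.18) and ACACA (0.14) not passing. Of 11 genes of lipid uptake and fatty acid oxidation 2 rose and 4 fell. HADHB, the beta subunit of the mitochondrial trifunctional protein, read 13.08, 13.23 and 13.12 on the control arrays and 11.94, 12.12 and 12.28 on the ErbB2 arrays (-1.03 ± 0.13, adjusted p = 2.05e-04). The alpha subunit HADHA fell by a similar size (-1.09 ± 0.34) with a call lost in 5 alternatives, and CPT2, which rebuilds acyl-CoA from acylcarnitine, read 11.33, 11.32 and 11.38 on the control arrays and 10.84, 10.56 and 10.48 on the ErbB2 arrays (-0.72 ± 0.12, adjusted p = 0.00114). PDK4, above, was the fourth. The rises were ANGPTL4 and FABP5 (0.43 ± 0.13, a call lost in 4 alternatives).

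Glycolysis and hypoxia genes rose in part. Of 19 glycolysis genes 5 rose and 1 fell: hexokinase HK2 (0.74 ± 0.13), phosphofructokinase PFKP (0.76 ± 0.14) and the bifunctional regulators PFKFB4 (0.94 ± 0.21) and PFKFB3 (0.60 ± 0.12) rose, the glucose transporter SLC2A1 read 12.20, 11.86 and 11.89 on the control arrays and 11.25, 11.01 and 11.29 on the ErbB2 arrays and fell (-0.80 ± 0.14, adjusted p = 0.00165), and GAPDH (0.07), ENO1 (0.09) and PKM (-0.10) did not pass. Of 16 hypoxia response genes 8 rose and 1 fell (median 0.38), with BHLHE40, a repressor of the clock and of other genes, reading 10.04, 9.98 and 10.13 on the control arrays and 11.46, 11.29 and 11.31 on the ErbB2 arrays (1.31 ± 0.13, adjusted p = 3.64e-05), NDRG1 higher (0.98 ± 0.15) and the peptide hormone ADM lower (-0.85 ± 0.23). Of 27 oxidative phosphorylation genes 0 rose and 4 fell (14.8%, near the 12.7% of named genes), none beyond -0.42. NRF2 targets, the antioxidant and detoxification set, had 8 falls and 2 rises among 19 (median -0.29). AKR1C2, an aldo-keto reductase, read 13.25, 12.97 and 12.996 on the control arrays and 12.07, 12.13 and 11.81 on the ErbB2 arrays (-1.07 ± 0.15, adjusted p = 5.70e-04). The related AKR1C3 (-0.89 ± 0.16) and AKR1B10 (-0.91 ± 0.21) and NQO1 (-0.56 ± 0.11) fell, although AKR1C genes are near-identical copies whose probes may share signal. The glutathione synthesis genes GCLC (0.33) and GCLM (0.07), TXNRD1 (-0.20) and SRXN1 (-0.16) did not pass.

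Replication genes had few calls, and mitotic genes fell in part. Of 27 DNA replication genes 2 rose and 0 fell (7.41% higher against 11.8% of named genes), MCM10 (0.63 ± 0.19) and POLE2 (0.54 ± 0.15), each with a call lost in 6 alternatives. Of 37 mitosis and G2/M genes 1 rose and 8 fell (21.6% lower, median -0.35). KIF20A, a kinesin of cell division, read 11.53, 11.19 and 11.42 on the control arrays and 10.46, 10.15 and 10.79 on the ErbB2 arrays (-0.91 ± 0.16, adjusted p = 0.00166), and NUSAP1, a spindle protein, read 11.53, 11.55 and 11.75 on the control arrays and 10.57, 10.87 and 11.01 on the ErbB2 arrays (-0.80 ± 0.18, adjusted p = 0.00829). BIRC5 (-0.63 ± 0.14) and FOXM1, a transcription factor of mitotic genes (-0.79 ± 0.20), fell too, while CDK1 (0.02), CCNB1 (0.15) and BUB1B (0.02) did not pass. The call of FOXM1 was lost in 2 alternatives, and its second kept probe did not pass by limma (-0.14, adjusted p = 0.626). Neither did the second kept probe of NUSAP1 (-0.45, adjusted p = 0.186). Across alternatives 3 to 17 of the mitosis and G2/M genes were called lower. The 250 bases before the starts of KIF20A (chr5:138178862-138179111) and NUSAP1 (chr15:41332631-41332880), both on the plus strand in RefSeq GRCh38.p14, are shown with CCAAT on either strand in capitals, since CCAAT boxes are common in promoters of mitotic genes.
KIF20A: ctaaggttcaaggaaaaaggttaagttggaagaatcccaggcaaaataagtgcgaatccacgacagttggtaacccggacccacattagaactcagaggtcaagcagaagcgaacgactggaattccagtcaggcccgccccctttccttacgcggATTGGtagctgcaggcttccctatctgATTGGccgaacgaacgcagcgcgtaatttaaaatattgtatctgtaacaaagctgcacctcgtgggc
NUSAP1: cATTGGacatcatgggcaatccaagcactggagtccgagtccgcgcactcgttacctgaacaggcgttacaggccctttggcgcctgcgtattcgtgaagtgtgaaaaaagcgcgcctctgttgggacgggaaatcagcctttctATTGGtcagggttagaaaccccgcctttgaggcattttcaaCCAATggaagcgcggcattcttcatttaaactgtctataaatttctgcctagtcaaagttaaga
All 5 promoters that could be matched to falling genes of this list held these letters, against 33.0% of all promoters and 41.1% of those of all genes called lower. They also stood in 4 of 4 matched falling chaperone genes and 6 of 8 rising sterol genes, but in 1 of 10 falling lysosome and autophagy genes. Mitosis genes that did not fall were not counted, so a tie of these letters to the falls was not tested. Ribosome biogenesis genes rose in 4 of 20 (median 0.20) with PES1 highest (0.86 ± 0.18), and of 20 genes of nucleotide and polyamine synthesis 3 rose and 1 fell, the polyamine enzymes SRM (0.66 ± 0.15), AMD1 (0.62 ± 0.15) and ODC1 (0.49 ± 0.11) among the former. Heat shock genes rose in 6 and fell in 1 of 19 cases, led by HSPA4 (0.78 ± 0.19) and DNAJB4 (0.76 ± 0.16).

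CDK inhibitors and p53 targets fell in 8 and rose in 3 of 17 measured cases. SESN1, which fell, and GADD45A, which rose, stand in the FOXO list too. Across alternatives 3 to 11 of them fell and 1 to 7 rose. CDKN1A, the inhibitor p21, fell by 0.62 (SE 0.12, adjusted p = 0.00304), DDB2 read 10.09, 10.07 and 10.09 on the control arrays and 9.02, 9.10 and 9.25 on the ErbB2 arrays (-0.96 ± 0.27, adjusted p = 0.0204), and TP53INP1 fell (-0.89 ± 0.23). BAX (0.60 ± 0.12) and AEN (0.68 ± 0.17) rose, but another BAX probe, not detected on all 6 arrays, read lower in ErbB2 without passing. Of 15 death receptors and apoptosis inhibitors 3 rose and 2 fell. Beside TNFRSF6B and TNFSF10, the death receptor TNFRSF21 read 12.25, 12.69 and 12.22 on the control arrays and 11.29, 11.15 and 11.54 on the ErbB2 arrays and fell (-1.06 ± 0.15, adjusted p = 4.78e-04), and the survival protein MCL1 rose (0.55 ± 0.12, adjusted p = 0.00688).

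A mixed list of growth factor, hormone and other receptors fell more often than the background. Of 12 measured growth factor and hormone receptors and binding proteins 5 fell and 0 rose (41.7%, median -0.57). FGFR3, a receptor for fibroblast growth factors, read 13.26, 13.23 and 13.30 on the control arrays and 11.74, 11.69 and 11.83 on the ErbB2 arrays. The arrays of each group lay close together, and ErbB2 was lower by 2.85-fold (-1.51 ± 0.10, adjusted p = 2.32e-06). The collagen receptor DDR1 (-0.92 ± 0.17), the kinase AXL (-0.88 ± 0.17), RXRA (-0.82 ± 0.16) and IGF2R (-0.68 ± 0.15) also fell, and MET (0.35) did not pass. Of 13 genes of TGF-beta and BMP signalling 2 rose and 4 fell, with the coreceptor TGFBR3 reading 11.496, 11.80 and 11.63 on the control arrays and 9.76, 9.88 and 10.18 on the ErbB2 arrays (-1.70 ± 0.15, adjusted p = 1.37e-05). ID3 (-1.09 ± 0.12, adjusted p = 8.47e-05) fell and ID1 (0.65 ± 0.16, adjusted p = 0.0123) rose, although both are known BMP targets. Of 16 Notch and Wnt genes 5 fell and 2 rose. LFNG, which modifies Notch receptors with sugar, read 10.84, 11.14 and 10.77 on the control arrays and 9.497, 8.93 and 9.005 on the ErbB2 arrays (-1.77 ± 0.32, adjusted p = 0.0021), and NOTCH1 read 11.68, 11.71 and 11.48 on the control arrays and 10.93, 10.31 and 10.65 on the ErbB2 arrays (-0.99 ± 0.17, adjusted p = 0.00168). The Notch ligand JAG2 fell (-0.78 ± 0.18), but the Notch target HES1 rose (0.80 ± 0.16, adjusted p = 0.00333), as did WNT7A (1.04 ± 0.14). Of 17 ephrins, semaphorins, plexins and their receptors 2 rose and 4 fell, EFNB2 (0.83 ± 0.18) and EPHA2 (0.81 ± 0.19) higher and the plexin PLXNB1 (-1.11 ± 0.21) and ephrin EFNA1 (-0.62 ± 0.10) lower. Of 17 YAP and SRF targets 4 rose and 2 fell, CNN3 (0.98 ± 0.16) and CCN2 (0.80 ± 0.18) higher beside F3 and SRF itself lower (-0.58 ± 0.12). Across alternatives, which count more members under looser detection filters, 5 to 15 receptors, 2 to 11 TGF-beta and BMP genes, 3 to 12 Notch and Wnt genes and 3 to 10 ephrins and plexins fell. Of 6 clock genes BHLHE40 rose and NFIL3 fell (-0.91 ± 0.30), the latter with a call lost in 12 alternatives.

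**Figure D4:**
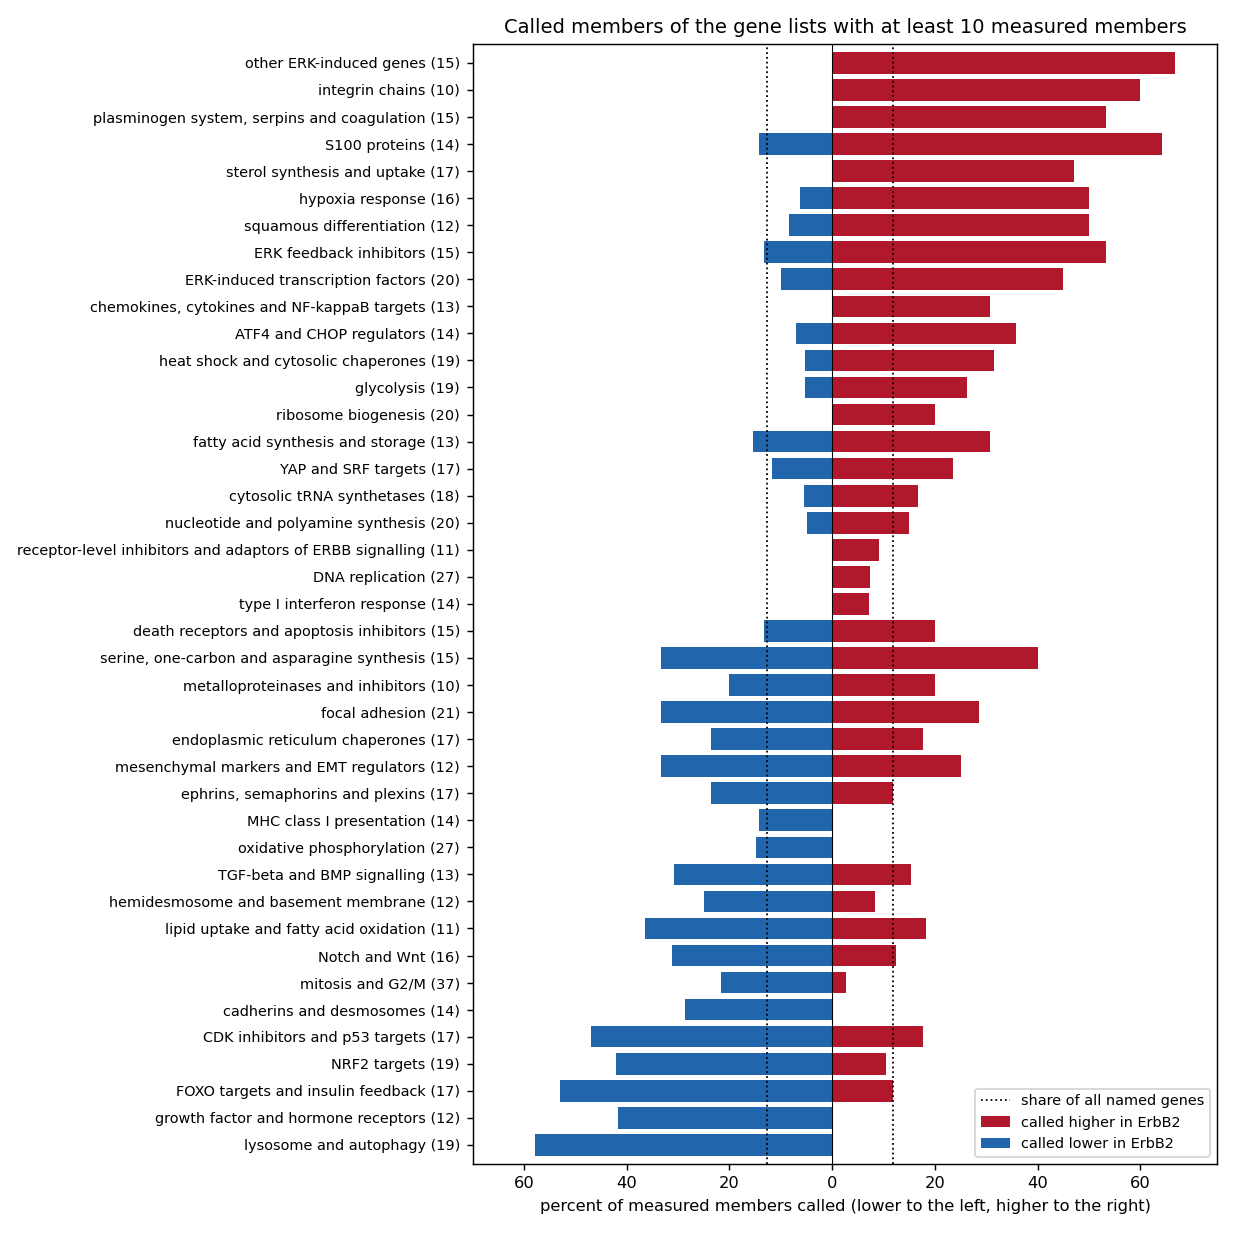
Percent of measured members called higher (red, to the right) and lower (blue, to the left) in ErbB2 for each gene list with at least 10 measured members, whose number stands in brackets. Dotted lines give the shares of all named genes, 11.8% higher and 12.7% lower, and the longest bars are those of other ERK-induced genes (66.7% higher) and of lysosome and autophagy genes (57.9% lower).

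Some genes were detected in 1 group only and lie outside the test. Detection on all 3 ErbB2 and no control array held for 44 named genes, and on all 3 control and no ErbB2 array for 1431, in the direction of the lower background of the control arrays, whose part was not tested. A bound sets the mean of the bright group against the mean, over the dim arrays, of the higher of the lowest detected signal there and the probe's own signal. By this bound TEK, the angiopoietin receptor, was at least 3.76-fold higher in ErbB2 cells, with levels of 9.11, 9.35 and 9.24. AHSP (at least 2.56-fold), the stromelysin MMP10 (at least 2.04-fold), ESRRG (at least 2.04-fold) and ATP4B (at least 1.98-fold) followed. TEK is on the endothelial list, whose summed linear signal was 1158 to 1222 on ErbB2 and 652 to 714 on control arrays. This sum includes TEK itself, so it is no separate measure beside the level of TEK. Of that list PECAM1 rose (0.70 ± 0.13), and VWF, CDH5, KDR and CLDN5 were not detected on any of the 6 arrays. In the other direction the growth hormone receptor GHR was at least 4.17-fold lower, the drug exporter ABCC2 at least 3.998-fold, CD36, which takes up fatty acids, at least 3.63-fold, CDR2L at least 3.57-fold and ZBED3 at least 3.35-fold. Of these, GHR, CD36 and CDR2L were detected on 3 Cas arrays, ABCC2 on 1 and ZBED3 on 0.

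ErbB2 cells were also set against Cas cells, another modified group, in a difference of means that holds no control array. Control arrays still entered the normalization, the detection filter, the choice of probes and the estimate of spread. Cas, or p130Cas, the product of BCAR1, is a docking protein of focal adhesions, and the labels do not say how it was changed. Over the same items 328 were called (3.35%), 238 higher (2.43%) and 90 lower (0.92%) in ErbB2, and among named genes 196 were higher (2.58%) and 79 lower (1.04%). Of the 897 named genes higher than in control 136 were also called higher than in Cas. Of the 970 lower than in control 72 were also called lower than in Cas. Both comparisons share the ErbB2 arrays. The count of 328 lay between 173 and 208 when any 1 of the ErbB2 or Cas arrays was left out and was 528 without Cas/ErbB2 replicate 3. Without control replicate 1, 2 or 3 it was 301, 254 or 259. TMEM158 was not detected on any Cas array, so ErbB2 was at least 7.75-fold higher there (adjusted p = 2.52e-07 in the fit). SCG5 read 8.61, 9.08 and 9.06 on the Cas arrays, overlapping control, and ErbB2 was higher by 2.47 (adjusted p = 1.79e-05). NT5E read 9.94, 10.29 and 10.06 (2.36, adjusted p = 3.77e-06), and SERPINE2 read 10.65, 10.40 and 10.54 (2.12, adjusted p = 2.86e-05). In these genes each Cas array was below each ErbB2 array. MALL (2.32), INSC (2.16), ASNS (1.86), TRIB3 (1.80) and STC2 (1.79) were higher in ErbB2 as well. PHLDA2, an ERK-induced gene, was at least 1.99-fold higher than in Cas cells, where it was not detected, and the integrin chain ITGA5 was higher by 1.62 (adjusted p = 0.00243).

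CALML3 read 10.48, 10.49 and 10.46 on the Cas arrays, within the range of control, and was lower in ErbB2 (-1.97, adjusted p = 3.24e-04). ALDH3A1 read 11.06, 11.27 and 11.24 (-1.56, adjusted p = 1.92e-05), FBXO32 12.02, 11.80 and 11.86 (-1.38, adjusted p = 0.00347) and SELENOP 11.53, 11.40 and 11.73 (-1.35, adjusted p = 7.14e-05). All were lower in ErbB2 than on any Cas array. BBOX1 (-1.67), PRODH (-1.31), the glycoprotein GPNMB (-1.34) and FGFR3 (-0.96, adjusted p = 2.40e-04) were lower too, BBOX1 losing its call without ErbB2 or Cas replicate 3. LCN2 was lower (-1.52, adjusted p = 0.0467) with a call that 13 alternatives ended. CCL5, higher in ErbB2 than in control, was likewise lower than in Cas (-1.10, adjusted p = 0.00196).

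For the genes given next no difference between ErbB2 and Cas passed. EGFR read 9.65, 9.80 and 9.64 on the Cas arrays, and the difference was -0.06 with a standard error of 0.12 (adjusted p = 0.893). S100A7 read 12.19, 11.70 and 11.53 (-0.33, SE 0.34, adjusted p = 0.76), S100A9 read 15.54, 15.44 and 15.37 (-0.03, SE 0.17), and MMP9 read 11.53, 11.86 and 10.63 (-0.33, SE 0.31). For F3 the difference was 0.34 (SE 0.18, adjusted p = 0.44) and for SPRR1B 0.30 (SE 0.26, adjusted p = 0.7). For the adaptor GRB7 it was -0.13 (SE 0.20, adjusted p = 0.861). Tests that miss the threshold do not show equal levels, and standard errors of up to 0.34 leave room for differences of some size. By list, 5 of 15 ERK feedback inhibitors, 4 of 20 ERK-induced transcription factors and 7 of 15 other ERK-induced genes were higher in ErbB2 than in Cas. Of 16 hypoxia genes 6, of 17 sterol genes 5 and of 15 plasminogen and serpin genes 4 were higher. Other lists that moved against control had few or no calls against Cas: by limma 0 of 19 lysosome and autophagy genes were lower (3 at an unadjusted p under 0.05), and 0 of 12 squamous genes were higher (0 at that p). Of 17 FOXO targets 2 were lower and 1 higher. At an unadjusted p under 0.05 by limma, however, 10 of them were lower and 2 higher, and their median difference was -0.39. Of 12 growth factor and hormone receptors 1 was lower and 1 higher (3 and 3 at that p). Of 37 mitosis genes 0 were lower (1 at an unadjusted p under 0.05) and of 14 cadherin and desmosome genes 0 (4 at that p). DUSP6 was higher in ErbB2 by 0.54 (adjusted p = 0.0347), beside 2.17 ± 0.12 against control. The SLC7A5 transporter was lower in ErbB2 by -0.84 (adjusted p = 0.00185).

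**Figure D5:**
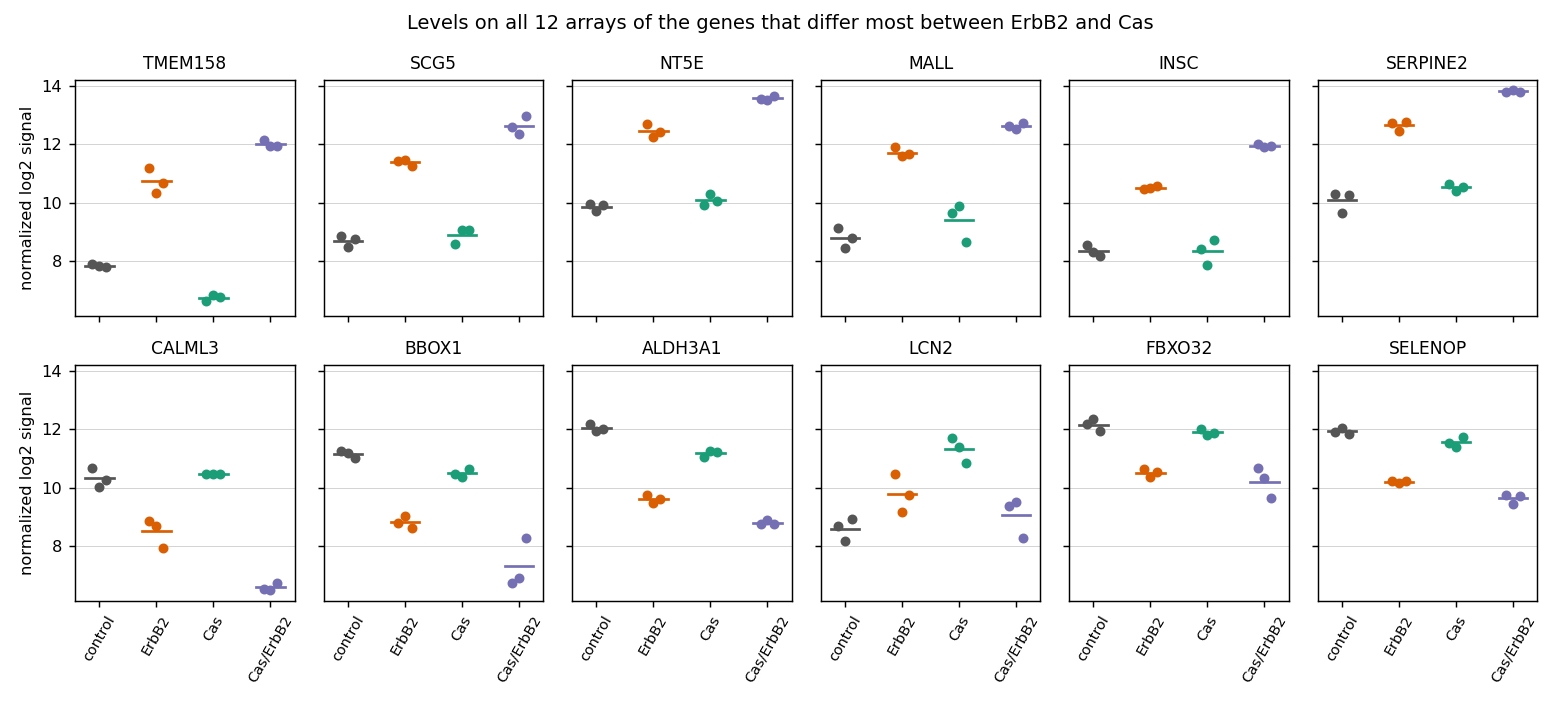
Normalized log2 signal (vertical axis) on all 12 arrays for 6 genes higher (top row) and 6 lower (bottom row) in ErbB2 than in Cas, 1 point per array with a line at the mean of each group of 3. In the top row ErbB2 lies above control and Cas in each gene, in the bottom row below both except for LCN2. The genes were chosen among those called against both Cas and control, so ErbB2 stands apart from both by choice. Cas values of TMEM158 were not detected.

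Levels in Cas/ErbB2 cells are given side by side only, with no test. SERPINE2 read 13.79, 13.84 and 13.79, NT5E read 13.56, 13.51 and 13.64 and ASNS read 12.36, 12.36 and 12.76 on those arrays, all above the ErbB2 arrays. FGFR3 read 10.49, 10.42 and 10.56 and ALDH3A1 8.77, 8.89 and 8.77, below the ErbB2 arrays. S100A7 read 9.41, 9.93 and 9.15, overlapping control. S100A9 read 14.90, 14.92 and 14.57, between control and ErbB2.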

How the data were processed

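Per the labels, RNA isolated with trizol was biotin-labelled and read on Illumina bead arrays. The deposited table has 47224 probes, more than the BeadChip design named in the labels carries. Per the file headers, that table gives every probe on every array a linear intensity (the average over beads, without background correction or normalization) and a detection p-value. The authors' series table holds processed intensities and served as an alternative. For neither do the sources used here name the software. All 12 arrays were used, grouped by title.

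Background was fitted from the detection p-values, whose steps correspond to 770 negative controls (neqc of limma 3.58.1, R 4.3.3, offset 16), with quantile normalization and log2 over 12 arrays. The 11754 probes with detection p under 0.05 on all 6 arrays were kept, and the brightest stood for a gene. The platform annotation gave 1 symbol for 30111 probes, several for 8 and none for 17105, and 30072 were updated by gene ID. A 4-group linear model of all 12 arrays with empirical Bayes moderation and Benjamini-Hochberg adjustment over 9784 items gave ErbB2 against control and against Cas.

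The members, gene lists, naming rule and tests were chosen with earlier results of these data known. The genes named are the 15 with the largest change in each direction without overlap of the groups (no provisional symbols, no other probe called oppositely). Up to 4 called members per list and direction, not always those with the largest change, ERBB genes, BCAR1 and NGFR are named too. So are the 5 largest bounds per direction and the marker lists. The 10 largest differences per direction from Cas were taken among genes also called against control, and not all of these genes are named. Other list members named as examples were chosen after their values were seen. Lists carry no set test. Promoters are the 250 bases before the first start listed in RefSeq (GRCh38.p14), searched on both strands. The same-numbered ErbB2 and control arrays deviated together with r of 0.257, -0.0842 and 0.332, so numbers were not taken as pairs. The fit was tested on simulated data. Plots used matplotlib 3.10.9 under Python 3.11.15.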

Additional observations from a re-analysis of the deposited data

How the results depend on the processing

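Of 2488 calls between ErbB2 and control, at least 90.3% were shared by each of the other background corrections, the authors' processed values (2697 calls), median scaling over detected probes (3242, 34.6% lower against 44.3%), detection on all 12 arrays (2541), probe means (2526), the 6 arrays alone (3308) and trend with robust moderation (2629). The replicate block gave 2689 calls and 346 against Cas; same-numbered arrays share only a number, and the block does not rest on a pairing. Counts moved with detection on at least 3 of 12 arrays (4962, 55.0% lower), no filter (8072), array weights (4129), adjusted p under 0.01 (1190) and a change of at least 1 (475). They were 1534 to 3185 when 1 array was left out, lowest without control replicate 2, 1626 without ErbB2 replicate 2 and highest without Cas/ErbB2 replicate 3. Median scaling over all probes, added after seeing the data, called 9251 (99.7% lower). Between ErbB2 and Cas, 328 calls became 187 without a filter, 681 with array weights, 137 at adjusted p under 0.01, 107 at a change of at least 1, 58 with all-probe median scaling (median shift 0.19) and 173 to 528 when 1 array was left out. BAX read -0.86 at another probe under the 2 looser detection filters. Of the values of single genes 6591 kept direction and call, 359 lost and 41 gained a call and 2 reversed, both of BAX. Of the counts of called list members 1192 stayed within 1.5 times and 229 did not. Array background limits dim genes: detection failed on all ErbB2 arrays for 1431 genes detected on all control arrays.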
